A study of Mus musculus with 14 samples.

Results

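The genes described here are 87 nuclear protein-coding genes, of 21858 in the files, that stood high in a single WT mouse heart library, WT_A replicate 24. They were chosen by their values, at 5 FPKM or more in that library and at least 4 times the highest of the other 13 libraries, with symbols that begin with Kcn, Col or Adamts left out (1 gene, Adamts8). FPKM is the number of sequenced fragments of a gene, scaled to the length of the gene and to the depth of the library. Of 5052 such genes at 5 FPKM or more in that library, the 87 make 1.72%, which the rule itself fixes. The contrast of replicate 24 with the other libraries is therefore given as a description, with no test.

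The study examined precursors of the coenzyme NAD in doxycycline-inducible mice whose short hairpin RNA lowers frataxin, the protein lost in Friedreich's ataxia. Only WT hearts are used here (strain C57BL6J, treatment none by the labels, and no precursor given). They fall into the labelled groups WT_A (4 libraries, replicates 22, 23, 24 and 26), WT_F (5 libraries, replicates 28 to 32) and WT_B (5 libraries, replicates 4, 5, 7, 8 and 9). WT controls shared the doxycycline chow, begun at 12 to 16 weeks of age and kept for 16 to 20 weeks by the labels, or for 20 to 26 weeks in a first cohort and 16 weeks in a second by the study's methods. The labels give neither the cohort nor the sex of any group, and the study's first cohort held both sexes, so the groups compared below may differ in either, which was not tested. RNA came from 1 to 2 mg of hand-homogenized heart, and the chamber from which each piece was taken is not given in the sources used here. The series describes its samples as biological replicates, and the p-values below measure the spread between them.

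Atrial and ventricular muscle cells of the mammalian heart build their contractile apparatus from partly different genes. Atrial cells use their own myosin light chains, restrain the calcium pump of the sarcoplasmic reticulum with sarcolipin, and store atrial natriuretic peptide in granules from which it is released when the wall is stretched. The chamber identity is set by transcription factors such as TBX5 and NR2F2 on the atrial side and IRX4 and HEY2 on the ventricular side. The label of an atrium-like library refers to 4 markers of atrial muscle, Myl7, Nppa, Sln and Myl4. They were among the 5 members with the highest FPKM in replicate 24. Since all 4 are members, the rule fixes that they are high there, and they cannot check the label. Since the pieces are bulk tissue, fewer cells of a type and less RNA per cell cannot be told apart in any of the levels below.

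The depth of the 14 libraries, read from the steps between low FPKM values, was 16810000 to 31970000 fragments, and 24030000 in replicate 24 (to 4 digits). Transcripts of the mitochondrial genome took 33.8% to 52.0% of the summed FPKM in WT_A replicate 22, WT_F replicate 28 and all 5 WT_B libraries, and 1.93% to 17.2% in the rest, with 6.63% in replicate 24. Comparisons that set WT_B against another group therefore also set high against mostly low mitochondrial shares, and these cannot be told apart. When the rule that chose the 87 genes was applied to each library in turn, WT_A replicate 22 gave 32 genes of its own and the other 12 libraries gave 0. Genes 4 times lower than in every other library numbered 22 in replicate 24 and 0 in any other. WT_A replicate 24 was left out of every comparison between groups, since it chose the members.

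Together the 87 genes took 9.37% of the FPKM of nuclear genes in replicate 24 and 0.219% to 0.399% in the other 13 libraries. Their summed FPKM was 21002 in replicate 24, against 632 to 942 in the other WT_A libraries, 545 to 807 in WT_F and 496 to 648 in WT_B. All 13 were thus far below replicate 24, and within its own group replicates 23 and 26 lay inside the range of WT_F and WT_B while replicate 22 (942) lay above it. The 4 highest members, Nppa, Myl7, Gpx3 and Sln, held 66.2% of the members' summed FPKM in replicate 24, and the 10 highest held 87.3%.

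**Figure D1:**
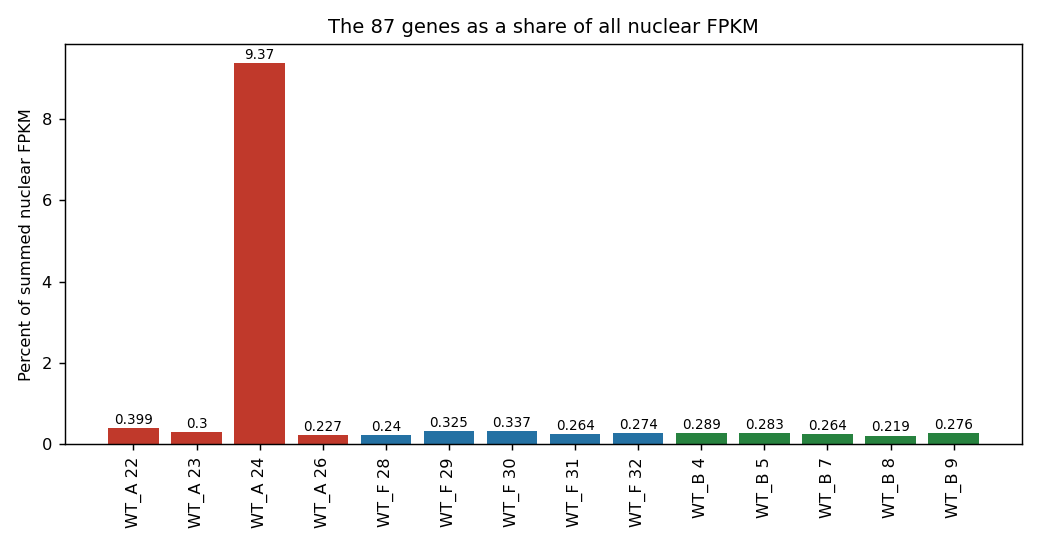
Bars give the summed FPKM of the 87 genes as a percent of all nuclear FPKM in each of the 14 libraries, on an axis from 0 and coloured by labelled group. WT_A replicate 24 stands at 9.37% and the other 13 libraries lie between 0.219% and 0.399%.

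Sequence before the start sites was read for the members from RefSeq (build GRCm38.p6), over the 250 bases upstream of each annotated start. The table held 64 of the 87 members. The windows of Nppa, Myl7, Myl4 and Mybphl are shown because these genes of atrial muscle had some of the highest levels in replicate 24. Each is printed 5′ to 3′ on the strand of the gene and ends at the base before the start. Capitals mark matches, on either strand, to any of 6 motifs of factors that act in heart muscle (GATA, MEF2, T-box, NKX2-5, NR2F and TEAD factors), whose letters are given after the sequences.
Nppa, chr4:148000472-148000721, plus strand: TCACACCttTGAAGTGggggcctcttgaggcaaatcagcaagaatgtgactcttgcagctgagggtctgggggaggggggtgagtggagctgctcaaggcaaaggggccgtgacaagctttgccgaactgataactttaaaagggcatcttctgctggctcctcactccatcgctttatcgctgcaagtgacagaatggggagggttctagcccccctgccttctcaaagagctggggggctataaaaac
Myl7, chr11:5898783-5899032, minus strand: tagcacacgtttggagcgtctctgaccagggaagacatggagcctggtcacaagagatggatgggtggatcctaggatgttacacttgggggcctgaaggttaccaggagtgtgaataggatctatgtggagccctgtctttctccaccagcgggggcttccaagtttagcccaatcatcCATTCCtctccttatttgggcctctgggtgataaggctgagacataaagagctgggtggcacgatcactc
Myl4, chr11:104550413-104550662, plus strand: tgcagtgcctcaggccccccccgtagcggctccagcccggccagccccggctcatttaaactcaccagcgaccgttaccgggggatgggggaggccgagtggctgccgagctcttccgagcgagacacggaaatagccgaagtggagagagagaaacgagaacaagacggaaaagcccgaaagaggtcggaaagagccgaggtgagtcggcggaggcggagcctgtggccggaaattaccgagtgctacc
Mybphl, chr3:108364661-108364910, plus strand: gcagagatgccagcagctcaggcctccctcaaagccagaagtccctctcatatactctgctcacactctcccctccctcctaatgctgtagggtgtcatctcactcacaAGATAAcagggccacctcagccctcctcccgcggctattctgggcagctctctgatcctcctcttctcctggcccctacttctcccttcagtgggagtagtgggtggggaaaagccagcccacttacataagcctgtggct

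The Nppa window opened with a T-box match on the opposite strand, 250 to 244 bases before the start, followed by an NKX2-5 match 241 to 235 bases before it, and the 2 did not overlap. Neighbouring T-box and NKX2-5 elements are well known from the promoter of the rat gene. Myl7 held a TEAD match 70 to 65 bases before the start and Mybphl a GATA match 141 to 136 bases before it. The Myl4 window held none of the 6. The T-box letters searched, GGTGTGA, were in 4 of the 64 members in the table (6.2%) and in 3.8% of all 27025 genes. The NKX2-5 letters, TNAAGTG, were in 8 members (12.5%) and in 11.4% of all genes. The NR2F letters, AGGTCA, were in 12 members (18.8%) and in 15.8% of all genes. The TEAD letters, CATTCC, were in 12 members (18.8%) and in 14.4% of all genes. The letters of GATA factors, AGATAA, were in 5 members (7.8%) and in 11.4% of all genes, and the MEF2 motif, CTA and TAG with any 4 bases between them, was in 2 members (3.1%) and in 3.7% of all genes. The members' promoters were thus close in these shares to those of all genes, and a match is a description of letters and not a bound site.

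Genes of peptide hormones and their processing gave the highest member of all. Nppa (ENSMUSG00000041616), which encodes atrial natriuretic peptide, stood at 6156 FPKM in WT_A replicate 24. It was at 232, 128 and 26.1 FPKM in WT_A replicates 22, 23 and 26. In WT_F replicates 28 to 32 it was at 34.4, 120, 140, 50.7 and 64.9 FPKM, and in WT_B replicates 4, 5, 7, 8 and 9 at 61.1, 78.0, 42.9, 21.7 and 42.0 FPKM. Nppa was therefore expressed in every library, varied more than 10-fold among the 13, and was 26.5 times its next highest value in replicate 24. Pam, the enzyme that amidates peptide hormones and a main membrane protein of atrial granules, was at 976 FPKM in replicate 24 and within 44.8 to 76.5 FPKM elsewhere. Sort1, the sorting receptor sortilin, was at 59.9 FPKM against 3.49 to 7.45. Uts2b, the gene of a urotensin 2 related peptide, had 14.2 FPKM in replicate 24, or 285 fragments, and 0 in all 13 others. Against a floor of 3 fragments over the 13 libraries (0.0118 FPKM), its level was at least 1199-fold higher, with counting error only.

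Contractile genes had the largest median ratio of any role (864), although 3 of the 6 had ratios under 6, and they split between genes nearly silent in the other libraries and genes expressed in all of them. Myl7 (ENSMUSG00000020469), the regulatory light chain of atrial myosin, was at 4235 FPKM in WT_A replicate 24. It was at 0.27, 2.003 and 0 FPKM in WT_A replicates 22, 23 and 26. The WT_F libraries had 0.31, 0.14, 0.67, 0.48 and 0 FPKM in order of replicate, and the WT_B libraries 0.07, 1.41, 0.19, 0.57 and 0.28 FPKM. The gene was thus at or under 2.003 FPKM in each of the 13, and the largest trace was in another WT_A library. In fragments, Myl7 had 60041 in replicate 24 and 90 in the other 13 libraries together. Myl4 (ENSMUSG00000061086), the essential light chain of atrial myosin, was at 1076 FPKM in replicate 24. Unlike Myl7 it was detected in every other library, at 0.35 to 0.43 FPKM in WT_A, 0.31 to 0.63 FPKM in WT_F and 0.11 to 0.43 FPKM in WT_B. Mybphl, a myosin-binding protein of atrial muscle and the conduction system, was at 633 FPKM against 0 to 0.22 FPKM, with 0 in 4 of the 13 libraries.

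The other 3 contractile members were expressed throughout. Myl1, best known as the essential light chain of fast skeletal muscle, was at 225 FPKM in replicate 24 and at 8.60 to 38.6 FPKM elsewhere, with its next highest value in WT_A replicate 22. Myl9, the regulatory light chain of smooth muscle, was at 142 FPKM against 5.54 to 26.2. Tpm2, beta-tropomyosin, was at 61.1 FPKM against 3.39 to 12.9. These 3 thus had ratios of 4.72 to 5.84 to the next highest library, whereas those of Myl7, Myl4 and Mybphl were 2114, 1722 and 2934.

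**Figure D2:**
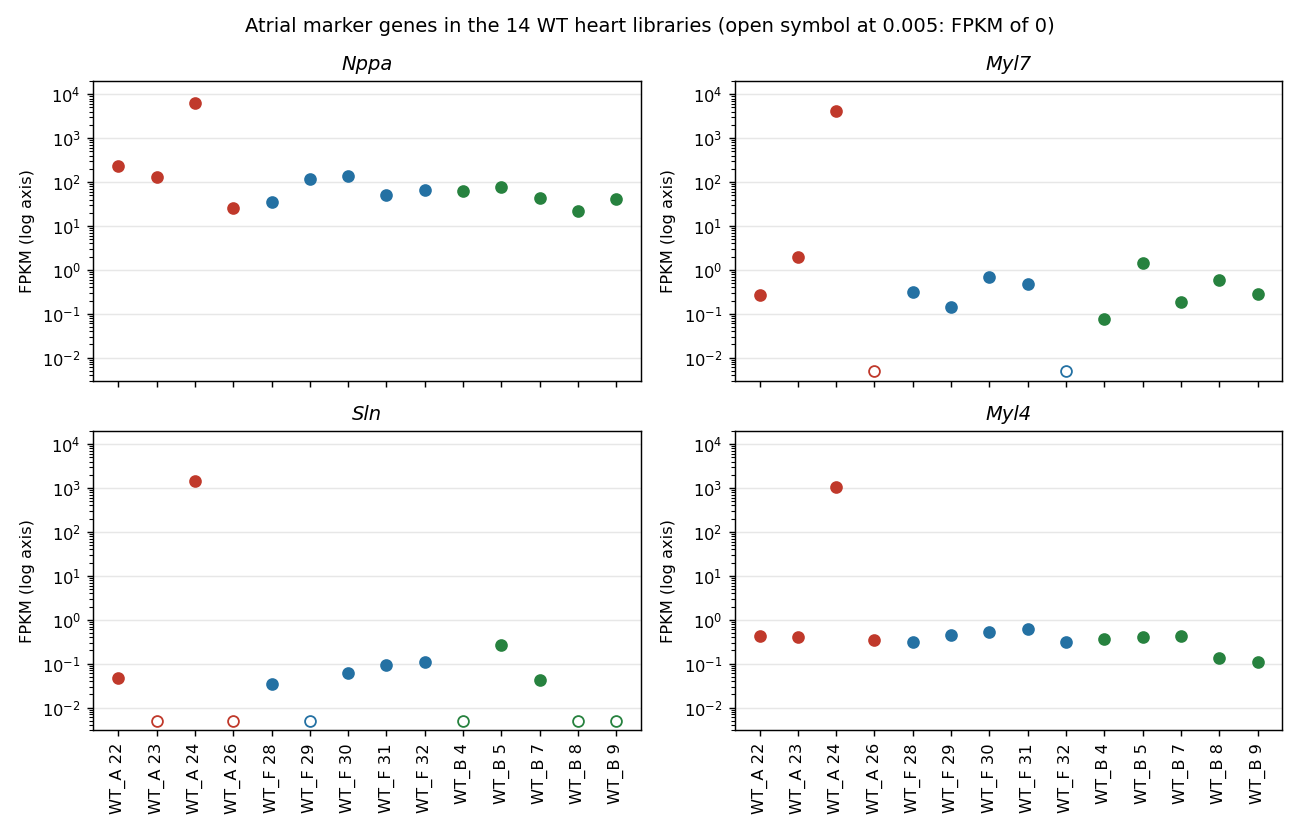
Points give the FPKM of Nppa, Myl7, Sln and Myl4 in each library on a log axis, coloured by labelled group, with an open symbol at 0.005 for an FPKM of 0. WT_A replicate 24 lies at 1076 to 6156 FPKM for the 4 genes, while the other 13 libraries lie at or under 2.003 FPKM for Myl7, Sln and Myl4 and at 21.7 to 232 FPKM for Nppa.

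Among channels, pumps and junction proteins, Sln (ENSMUSG00000042045), sarcolipin, had the largest ratio of any member with a value in another library. Sln was at 1444 FPKM in WT_A replicate 24 and at 0.05, 0 and 0 FPKM in WT_A replicates 22, 23 and 26. The WT_F libraries had 0.03, 0, 0.06, 0.09 and 0.11 FPKM and the WT_B libraries 0, 0.27, 0.04, 0 and 0 FPKM, in order of replicate. Sln was thus at 0 in 6 of the 13, and its highest trace was in WT_B replicate 5, the library with the second highest Myl7. It had 45739 fragments in replicate 24 and 19 in all others together. Fgf12, an intracellular fibroblast growth factor homologue that modulates sodium channels, was at 15.5 FPKM against 0 to 0.06.

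Gja5, connexin 40 of atrial and conducting muscle and of arterial endothelium, was at 31.4 FPKM in replicate 24 and at 0.55 to 1.20 FPKM elsewhere. Cacna1h, a T-type calcium channel, was at 28.6 FPKM against 0.64 to 1.60. Atp2a1, the calcium pump of fast skeletal muscle, was at 7.37 FPKM against 0.13 to 0.40, and the glutamate receptor subunit gene Grin2c at 7.07 FPKM against 0.11 to 0.90. Each of these 4 had some level in every library. Of 13 skeletal muscle genes listed, Atp2a1 was the only member, the summed level was 31.9 FPKM in replicate 24 against 179 to 1120 elsewhere, of which Acta1, skeletal alpha-actin, made up most (16.1 FPKM against 160 to 1110). In replicate 24, 3 of the 13 genes were above all other libraries, Atp2a1, Tnni2 (4.53 FPKM against 0.28 to 1.02) and Tnnt3 (0.60 FPKM against 0.07 to 0.56), and 3 were below. The fast myosin genes Myh1, Myh2 and Myh4 were at 0 there, and at a median of 0 over the other 13.

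The 5 transcription factors among the members had small ratios, from 4.52 to 6.22, and all were expressed in every library. Tbx5, which is needed to form the atria and septum, was at 48.7 FPKM in replicate 24 and at 5.35 to 9.07 FPKM elsewhere. Nr2f2, the orphan receptor COUP-TFII of atrial and venous cells, was at 6.19 FPKM against 0.86 to 1.37. Foxc1 was at 5.38 FPKM against 0.60 to 1.01, Creb3l2 at 37.5 FPKM against 4.18 to 6.14 and Zfp579 at 23.7 FPKM against 1.82 to 3.81. The median ratio of the transcription factors was 5.37.

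Kinases, receptors and other signalling proteins numbered 16 members, at 5.11 to 234 FPKM in replicate 24. Sbk3 and Sbk2, a pair of SH3-binding domain kinases, were at 234 and 64.9 FPKM and at up to 0.97 and 2.07 FPKM elsewhere. Tbc1d1, a regulator of glucose transporter traffic in muscle, was at 47.9 FPKM against 1.33 to 2.30. Ppp1r1b, the phosphatase inhibitor DARPP-32, was at 13.5 FPKM against 0.05 to 0.23, and Adcy1, a calcium-stimulated adenylyl cyclase, at 10.7 FPKM against 0.14 to 0.38. Of the 16, 8 stayed under 1 FPKM in all 13 other libraries.

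Secreted proteins included abundant members that were also high in the rest of the series. Gpx3, the secreted glutathione peroxidase, was at 2066 FPKM in replicate 24. It was at 148 to 179 FPKM in the other WT_A libraries, 122 to 156 FPKM in WT_F and 91.0 to 133 FPKM in WT_B. Clu, the extracellular chaperone clusterin, was at 1018 FPKM against 128 to 241, so its ratio of 4.22 was close to the limit of the rule. Dkk3, a Dickkopf family protein, differed from both, at 361 FPKM against 0.26 to 1.91. Lgals3, galectin-3, was at 39.0 FPKM against 0.87 to 2.95, and Slit3, a guidance ligand, at 17.5 FPKM against 0.68 to 2.20.

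Matrix genes among the members were led by Ccn2, connective tissue growth factor, at 277 FPKM against 9.31 to 28.7. Podn, the small leucine-rich proteoglycan podocan, was at 99.6 FPKM against 1.82 to 5.58. Cilp2, a cartilage intermediate layer protein, was at 33.0 FPKM against 0 to 0.14, and Comp, cartilage oligomeric matrix protein, at 18.9 FPKM against 0.14 to 1.24. Smoc1 was at 26.3 FPKM against 0.26 to 1.21. Cilp2, at 0 in 2 of the 13 libraries, was the only one of these 5 that was not detected in every library.

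Endothelial and endocardial members were present at low levels in all 13 libraries. Plvap, a protein of endothelial fenestrae and caveolae, was at 124 FPKM in replicate 24 and at 1.75 to 4.50 FPKM elsewhere. Npr3, the clearance receptor for natriuretic peptides and a marker of endocardium, was at 27.98 FPKM against 0.55 to 2.49. Vwf, von Willebrand factor, was at 21.9 FPKM against 1.80 to 3.29, Gpr182 at 12.3 FPKM against 1.09 to 1.86, Vcam1 at 7.13 FPKM against 0.81 to 1.54 and Bmx at 6.80 FPKM against 0.18 to 0.55. Of 10 general endothelial genes, none of them a member, 3 were above all 13 in replicate 24, 2 were below and 5 were inside the range. Those above were Emcn (15.8 FPKM against 2.33 to 5.65), Pecam1 (67.2 FPKM against 20.5 to 31.7) and Tek (16.4 FPKM against 7.38 to 11.8), and those below were Kdr (11.4 FPKM against 12.4 to 27.3) and Fabp4 (44.4 FPKM against 50.7 to 109). The list summed to 390 FPKM against 378 to 813. Cd36 was the largest part of that sum, at 137 FPKM in replicate 24 against 105 to 512 in the others (median 373), so the sum mainly follows this gene.

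Members of metabolism and transport were led by Stard10, a lipid transfer protein, at 374 FPKM in replicate 24 and at 9.78 to 18.9 FPKM elsewhere. Ucp2, a mitochondrial carrier, was at 90.9 FPKM against 9.01 to 17.2, and Slc17a7, a vesicular glutamate transporter, at 65.5 FPKM against 6.71 to 11.99. Mt3, a metallothionein best known from brain, was at 30.3 FPKM against 0.11 to 0.82. Among the 16 members with another or no clear role, Tmem163 was at 53.0 FPKM, or 5463 fragments, against 0 to 0.08 FPKM and 22 fragments in all 13. Mlana was at 31.1 FPKM with 791 fragments against 6, and Lmntd1 at 12.6 FPKM with 2353 against 32. Gpm6a, also listed for mesothelium, was at 7.33 FPKM against 0.03 to 1.19.

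**Figure D3:**
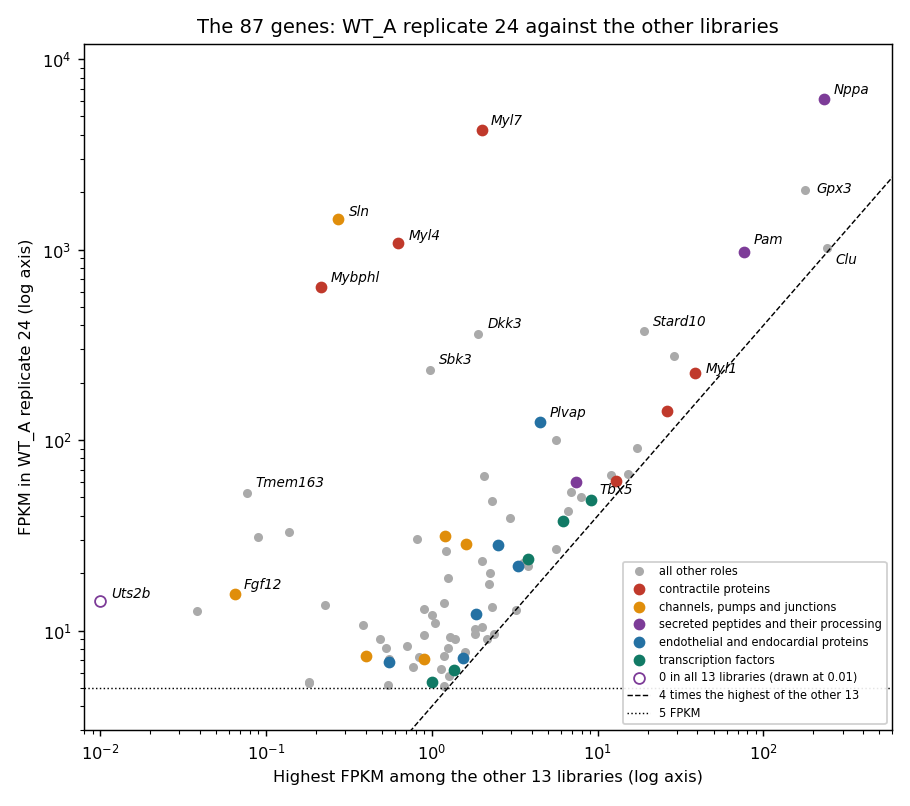
Each point is 1 of the 87 genes, with its highest FPKM among the other 13 libraries on the x axis and its FPKM in WT_A replicate 24 on the y axis, both on log axes and coloured by role. The dashed line is the 4-fold limit and the dotted line the 5 FPKM limit of the rule. Contractile genes lie both far above the dashed line, as Myl7 at 4235 against 2.003 FPKM, and near it, as Tpm2 at 61.1 against 12.9 FPKM.

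The members ranged widely in how far replicate 24 stood from the rest. The ratio to the next highest library was 4 to 8 in 38 genes, 8 to 20 in 26, 20 to 100 in 11 and 100 or more in 12, Uts2b included, with a median of 9.66. The highest value among the 13 stayed under 1 FPKM in 28 genes, was 1 to 10 FPKM in 47 and 10 FPKM or more in 12. The 12 members with a ratio of 100 or more were Myl7, Sln, Myl4, Mybphl, Dkk3, Sbk3, Tmem163, Cilp2, Mlana, Fgf12, Uts2b and Lmntd1. Their summed FPKM was 8144 in replicate 24 and 1.20 to 4.17 in the others, lowest in WT_A replicate 26 and highest in WT_A replicate 23. Each of the 13 thus carried 0.0147% to 0.0512% of the level of replicate 24, with the 3 groups overlapping.

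Just inside the ratio limit were Rgs12 (12.9 against 3.20 FPKM), Psd3, Rpp25, Clu and Efhd2, with ratios of 4.02 to 4.32. Just outside it were Akr1b8 (12.2 against 3.09 FPKM), Adgra2, Tmem51 and Mdk, with ratios of 3.78 to 3.95. The lowest members by level were Ramp1 at 5.11 FPKM, Adgrb2, Ephx4, Plekha7 and Foxc1 at 5.38 FPKM. The genes just under 5 FPKM were Sost at 4.98 FPKM, Cib2, Ndnf, Pdk3 and Eps8 at 4.58 FPKM. Neither limit fell in a gap in the values.

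Some members are neighbours in RefSeq gene order (build GRCm38.p6, protein-coding genes). Sort1 and Mybphl are adjacent on chromosome 3, and Sbk2, Sbk3 and Zfp579 follow each other on chromosome 7. On chromosome 16, Uts2b and Fgf12 are separated only by Ccdc50, which was at 2.36 FPKM in replicate 24 and at 1.60 to 3.38 FPKM in the others. The gene between these 2 members thus lay within the range of the other libraries. On chromosome 5, Tbx5 and Sds have 3 genes between them, of which Rbm19 was at 3.67 FPKM against 1.78 to 2.75, Sdsl at 3.20 FPKM against 3.91 to 6.86 and Lhx5 at 0 throughout. The 87 genes lie on 19 chromosomes, with the most (11) on chromosome 7.

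A list of 24 atrial muscle genes, compiled with these results known, held 16 of the members, and 22 of its genes were above all 13 other libraries in replicate 24. For comparison, of 10819 genes with a median of at least 0.5 FPKM over the 13, replicate 24 was above all others in 23.1% and below all others in 18.5%. The lists here and below were not held to that minimum, so their counts and these shares are not like for like. Some listed genes counted as above lay near 0 throughout, such as Dhrs9 (0.07 FPKM against 0 to 0.04) and, for epicardium, Muc16 (0.019 FPKM against 0 to 0.013). Listed atrial genes that the rule did not take were low or less different. Nppb, brain natriuretic peptide, was at 672 FPKM against 103 to 391. Cacna2d2, a calcium channel subunit, was at 4.15 FPKM against 0.19 to 0.38 and Bmp10 at 0.71 FPKM against 0 to 0.15. Hey1 (2.37 FPKM) and Adm (3.70 FPKM) lay inside the range of the other libraries.

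Of 14 ventricular muscle genes, 11 were below all 13 other libraries in replicate 24 and none was a member. Irx4, the ventricular transcription factor, was at 0.35 FPKM against 12.7 to 21.98, and Myl3, the ventricular essential light chain, at 162 FPKM against 2054 to 3944. The exceptions were Ankrd1, above all 13 at 405 FPKM, and Pln and Gja1, inside the range. Pln, phospholamban, was at 89.4 FPKM in replicate 24 with a median of 415 and a lowest value of 8.98 FPKM in the others. Of 16 genes that atrial and ventricular muscle share, 8 were inside the range of the 13 and 8 below it, and their summed FPKM was 19468 against 22083 to 29254.

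Markers of other cell types were counted in the same way. For endocardium, 7 of 9 genes were above all 13, of which Npr3, Plvap, Cytl1 and Vwf are members. The list summed to 240 FPKM against 14.5 to 20.5, with Hapln1 at 0. Those 4 members, led by Plvap (124 FPKM) and Cytl1 (53.4 FPKM), made most of the sum, so the rule fixes that it is high. Nfatc1, not a member, was inside the range, at 3.49 FPKM against 2.61 to 3.93. For epicardium and mesothelium, 11 of 15 were above, with Gpm6a a member, and the sum was 26.9 FPKM against 4.34 to 13.6, with Slpi at 0 and Wt1 at 0.32 FPKM, below all 13. For cartilage, valve and great vessel, 6 of 11 were above, with Comp, Cilp2 and Cytl1 members, and the sum was 320 FPKM against 63.8 to 155, with Acan at 0. For blood, 6 of 6 were above, with no member, at 2717 FPKM against 650 to 2007.

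Other lists moved less or not upward. The sinoatrial and conduction list summed to 23.3 FPKM against 19.5 to 34.5, and its defining genes Hcn4, Shox2 and Isl1 were at 0.12, 0.11 and 0 FPKM. The 10 lung and airway genes were all at 0 in replicate 24, and they summed to only 0.019 to 1.88 FPKM in the others. Smooth muscle genes summed to 159 FPKM against 90.3 to 749, with 0 of 10 above all 13. Most of that sum in replicate 24 was Pln, also listed as ventricular, at 89.4 FPKM against a median of 415 in the others. Fibroblast genes summed to 584 FPKM against 414 to 613, with 5 of 10 above (Lum, Fbln1, Dpt, Mfap5 and Pi16) and 0 below. Most of that sum in replicate 24 was Gsn, inside the range at 371 FPKM against 276 to 463, so the sum says little of the other genes. The part of these cell types in the members' levels was not tested.

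**Figure D4:**
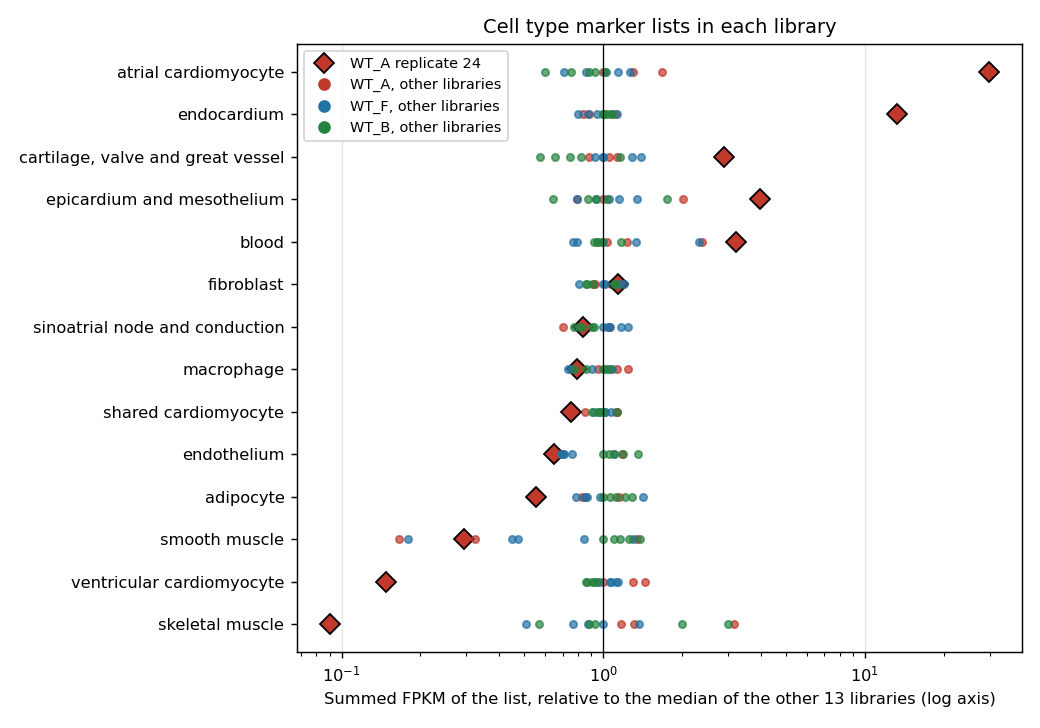
Each row is a marker list, and points give its summed FPKM in each library relative to the median of the 13 libraries other than WT_A replicate 24, on a log axis and coloured by labelled group. Replicate 24 (diamond) lies beyond the other libraries on the high side for atrial, endocardial, cartilage and valve, epicardial and blood genes. It lies beyond them on the low side for shared and ventricular cardiomyocyte, skeletal muscle and adipocyte genes. Members make most of the atrial and endocardial sums in replicate 24, so the rule fixes that these are high. Lpl makes most of the adipocyte sum, at 231 FPKM in replicate 24 against a median of 424 in the others, while Adipoq was at 0 against a median of 0. Of the 17 lists, 14 are drawn.

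The members were then compared between the labelled groups with replicate 24 left out, in which the rule had used only the highest of the 13 values of each gene. The limma test on log2(FPKM + 1) required 0.5 FPKM in at least 3 of the libraries compared (4 for WT_B against WT_F), which left 63 to 66 of the 87 members, and p-values were adjusted over all genes tested by Benjamini-Hochberg at a threshold of 0.05. Of the 4 markers, Nppa passed that filter in all 3 comparisons, Myl7 in WT_B against WT_A, and Sln and Myl4 in none. The comparisons share libraries with each other and are not independent.

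Between WT_F (n = 5) and WT_A (n = 3), 0 of 64 members passed the limma test, where 4 of 12714 genes did (0.0315%). At an unadjusted p under 0.05 stood 3 members, 2 higher and 1 lower in WT_F, against 4.19% of all genes (2.27% higher and 1.93% lower). Their log2 differences were 0.53 ± 0.20 for Podn, −0.40 ± 0.13 for Slit3 and 0.33 ± 0.12 for Aldh1l2 (± SE). Nppa was at 81.9 FPKM ± 45.6 (SD, n = 5) in WT_F and 129 FPKM ± 103 (SD, n = 3) in WT_A, and the groups overlapped. No member had groups without overlap, where 3.4% of all genes did. The median log2 difference was 0.02 over the members and 0.00 over all genes.

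Between WT_B (n = 5) and WT_A (n = 3), 0 of 66 members passed the limma test, as did 0 of 12992 genes (0%). At an unadjusted p under 0.05 stood 12 members, 5 higher and 7 lower in WT_B, against 24.9% of all genes (11.9% higher and 13% lower). Groups without overlap were found for 3 members, Gpx3, Stard10 and Efhd2, all lower in WT_B, where 12.6% of all genes had none. Gpx3 was at 113 FPKM ± 19.3 (SD, n = 5) in WT_B and 161 FPKM ± 16.0 (SD, n = 3) in WT_A, a log2 difference of −0.52 ± 0.16 (SE). Its limma adjusted p was 0.117. The median log2 difference was −0.03 over the members and −0.03 over all genes.

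This count rested on WT_A replicate 22. Without it, 4162 of 13415 genes passed (31%), and 6 of 67 members did. Higher in WT_B were then Npr3 (log2 difference 0.75, limma adjusted p = 0.00678), Psd3 (0.53), Sbk3 (0.47) and Sbk2 (0.43), and lower were Stard10 (−0.47) and Tbx5 (−0.33). The remaining WT_A libraries, replicates 23 and 26, had mitochondrial shares of 1.93% and 2.17% against 33.8% to 52.0% in WT_B.

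Between WT_B (n = 5) and WT_F (n = 5), 1 of 63 members passed the limma test, against 208 of 12894 genes (1.61%). It was Slit3. Slit3 was at 1.51, 2.12, 2.20, 1.86 and 2.004 FPKM in WT_B replicates 4, 5, 7, 8 and 9, and at 0.68, 1.02, 0.96, 1.12 and 1.55 FPKM in WT_F replicates 28 to 32. The groups overlapped, since WT_F replicate 32 lay above WT_B replicate 4. The log2 difference was 0.52 ± 0.11 (SE) with a limma adjusted p of 0.0441, while the WT_A libraries were at 1.52, 1.78 and 1.80 FPKM. No member had groups without overlap, where 5.23% of all genes did. At an unadjusted p under 0.05 stood 11 members, 4 higher and 7 lower in WT_B, against 25.8% of all genes (12% higher and 13.7% lower), and the median log2 difference was −0.07 over the members and −0.03 over all genes.

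The call of Slit3 did not hold when any library other than WT_F replicate 28 was left out (limma adjusted p of 0.0525 to 0.117 in those 9 fits). Without WT_F replicate 28, the library of that group with a mitochondrial share of 49.99%, 2645 of 12764 genes passed (20.7%) and 7 of 63 members did. Slit3 and Npr3 were then higher in WT_B (0.45 and 0.44), and Dkk3 (−0.64), Podn (−0.49), Gstm6 (−0.33), Ucp2 (−0.32) and Lrrn2 (−0.28) lower. Without WT_B replicate 4, Tpm2 passed in place of Slit3, with a log2 difference of −0.99.

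**Figure D5:**
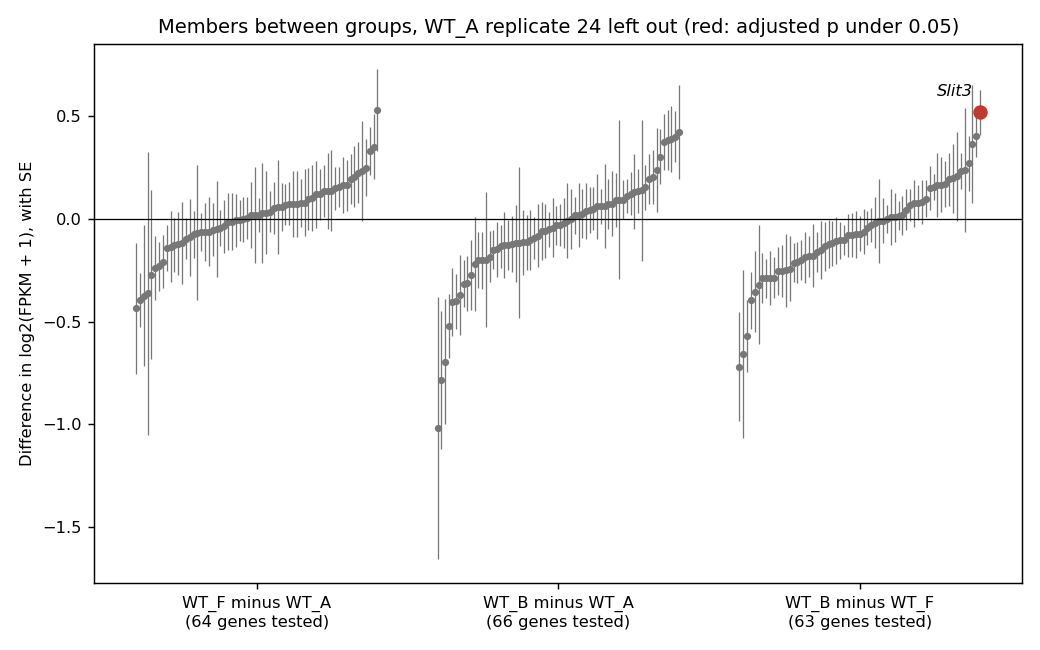
Points give the difference of each tested member on the log2(FPKM + 1) scale, with its SE, for the 3 comparisons between groups, sorted within each. The 63 to 66 members of each comparison lie on both sides of 0, and Slit3 in WT_B minus WT_F (0.52) is the only red point, with an adjusted p under 0.05.

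Among the 13 libraries the members varied somewhat more than other genes over the same minimum, without matching for level. The 62 members with a median of at least 0.5 FPKM over the 13 had a median coefficient of variation of 23.7%. All 10819 genes at or over that minimum had 17.1%. WT_A replicate 22 was the highest of the 13 for 9 of these 62 members (14.5%), among them Nppa, Gpx3, Pam, Myl1 and Tpm2, and for 7.3% of all genes. WT_F replicates 29 and 32 were close to it, each the highest for 8 members (12.9%), and for 4.4% and 7.9% of all genes. WT_B replicate 7 was the lowest most often, for 12 of the 62 members, and for 14.9% of all genes. These shares are descriptions, since members of 1 library share its depth and tissue piece.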

How the data were processed

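The authors counted the fragments of each gene (featureCounts, v1.5.0-p3) and deposited FPKM values, 1 file per library with 56748 genes by Ensembl identifier. The aligner is not given in the sources used here, and the study's groups were compared by its authors with DESeq2. The submitters' processing notes name build GRCm39. Gene names, types and lengths came from GENCODE M21 (GRCm38), which named 52073 identifiers, so no gene coordinates are given for the values. Promoter windows and gene order came from RefSeq tables of GRCm38.p6.

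Depth was recovered from the FPKM steps: of values of 1 to 30 fragments, 90.3% to 92.0% lay no more than 0.02 from a whole number, as 4% of evenly spread values would. Fragments of single genes were recovered for 65 members, where at least 80% of values under 300 fragments were within 0.05 of whole, and of Uts2b from its 1 value. Groups were compared with limma 3.58.1 in R 4.3.3 (moderated test with intensity trend, two-sided) on log2(FPKM + 1), a scale that understates changes of low genes. The test was also tried on simulated data, but the outcome is not given here and is not used as support. Other tables used pandas 2.3.3 and numpy 2.4.6 under Python 3.11.15, and figures were drawn with matplotlib 3.10.9. Genes named are the markers, the 20 members highest in level and the 20 highest in ratio, members in the cell type lists, members called, the 5 genes on each side of each limit, and the 6 members highest in the other libraries, and a gene that falls under this rule is not reported here. Genes between neighbouring members, other members given as examples of a role, and members named for an unadjusted p, a lack of overlap or a call without 1 library, were chosen after their values were seen. Members, roles and lists were chosen with earlier results of these data known. The sources do not say whether counting used strand, so overlapping genes may share fragments. Alternatives were the limits of the rule, scaling, pseudocount, filters, the mitochondrial percent as a covariate and each library left out.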

Additional observations from a re-analysis of the deposited data

Results flagged for a closer look

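The summed FPKM of the 87 genes in WT_A was 21002 in replicate 24, far from 632 to 942 in the other 3 libraries, which the choice of the genes by that library fixes.

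Within WT_F and WT_B, groups of 5, each member with a group median of at least 0.5 FPKM was checked for a single library far from the other 4. This was found in 6 of 124 checks (4.8%), where chance flags about 1 in 20. Myl9 was at 26.2 FPKM and Tpm2 at 12.8 FPKM in WT_B replicate 4, with the other WT_B libraries at 9.15 to 12.3 and 3.39 to 5.56 FPKM. Cacna1h was at 1.6 FPKM and Gpr182 at 1.86 FPKM in WT_B replicate 9, with the others at 0.892 to 1.05 and 1.09 to 1.29 FPKM. Mapk10 was at 2.11 FPKM in WT_F replicate 30 against 1.25 to 1.47, and Cemip2 at 1.29 FPKM in WT_F replicate 29 against 0.929 to 0.998.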

How the results depend on the processing

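The number of members was 134 at a minimum of 2 FPKM and 49 at a ratio of 8. It stayed within 1.5 times of 87 at a minimum of 10 FPKM (60), a ratio of 3, median-of-ratios scaling (86), nuclear genes alone in the total (98) and with each of the other 13 libraries left out (87 to 89, with no member lost). The members called in WT_B minus WT_F were 0 with a pseudocount of 0.1, with no filter and with a filter of 2 FPKM, 1 with the other 2 settings, and 0 to 7 with each library left out. In WT_B minus WT_A they were 0 to 6 with each library left out and 0 otherwise. In WT_F minus WT_A they were 0 throughout, also without WT_A replicate 22 and WT_F replicate 28, a setting chosen after seeing the data.

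Over all genes, WT_F minus WT_A gave 4 calls and 1 with no filter, 2 with the filter of 2 FPKM, 8 with the mitochondrial covariate, 2 without both libraries above and 0 to 1 with single libraries left out. WT_B minus WT_A gave 0 calls and 12 with the pseudocount of 0.1, 11 with the filter of 2 FPKM, 21 with median-of-ratios scaling, 8 with the covariate, 41 with replicate 24 kept and 0 to 4162 with single libraries left out. WT_B minus WT_F gave 208 calls, 20 with no filter, 11 with the covariate and 17 to 2645 with single libraries left out.

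Directions turned in 11 of 326 settings over 23 tested differences of named members. With replicate 24 kept, the log2 differences of Podn (−0.67) and Aldh1l2 (−0.18) in WT_F minus WT_A, and of Sbk2 (−0.83), Sbk3 (−1.49), Npr3 (−0.50) and Psd3 (−0.19) in WT_B minus WT_A, were negative, since that library chose the members. With the covariate, Npr3 (−0.17) and Tbx5 (0.10) in WT_B minus WT_A and Ucp2 (0.20) in WT_B minus WT_F turned. Nppa in WT_F minus WT_A (−0.36) ran from −1.25 to 0.30 with single libraries left out, the latter without WT_A replicate 22, and was 0.56 without that library and WT_F replicate 28. The cause of these changes was not tested.

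No paired analysis was possible because the 3 groups share no replicate number. With 3 to 5 libraries a group, differences near the spread between libraries were not detectable, and levels under about 0.1 FPKM rest on few fragments.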

Other observations

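The same limits applied to genes of other types took 6 more, 2 of them not in the annotation, led by H19, an imprinted long noncoding RNA, at 64.4 FPKM in WT_A replicate 24 and at up to 6.45 FPKM in the other 13 libraries. Gm13054, an antisense transcript, was at 11.0 FPKM against at most 0.64, and Gm32849, a long noncoding RNA, at 7.62 FPKM against at most 0.06.

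In the other direction, 22 protein-coding genes were at 5 FPKM or more in each of the 13 libraries and at least 4 times lower in replicate 24. Among them Rpl3l, a ribosomal protein of striated muscle, was at 14.01 FPKM against 125 to 225, Myh7b, a slow myosin heavy chain, at 0.22 FPKM against 9.85 to 28.2, and Abcc9, a subunit of ATP-sensitive potassium channels, at 4.15 FPKM against 26.1 to 41.3. These genes were named after their values were seen.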
